A study of Drosophila melanogaster with 24 samples.

Results

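The genes described here are 105 genes of Drosophila melanogaster with a CG number, the provisional name of a predicted gene, as their symbol. Some of them have other names as synonyms. The array signal of each of the 105 genes differed between female and male genital discs in 1 direction at all 3 stages studied. They were chosen from 5209 CG-numbered genes among 11982 genes measured. The rule took, for each gene, its brightest probe set, and asked for a female minus male difference of group means of at least 0.4 log2 units at L3, at P6 and at P20, with the same sign. It gave 28 genes higher in females (0.538% of the CG-numbered genes) and 77 higher in males (1.48%). The sex differences chose these genes, so their values are a description and are not tested.

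The genital disc is the larval primordium that forms the genitalia, the genital ducts and the analia. Female discs and male discs were each collected at 3 stages: from wandering third-instar larvae (L3), from prepupae about 6 h after puparium formation (P6) and from pupae about 20 h after it (P20). Each of the 6 groups had 4 biological replicates, with 1 Affymetrix array each, 24 arrays in all. All animals, of both sexes and all stages, had the genotype esgGAL4.B, UAS-GFP.nls/CyO, in which a driver at the escargot gene switches on nuclear green fluorescent protein in imaginal discs and the second chromosome is held over a balancer. None of the groups is therefore wild type. Larvae were sexed by the size of their gonads, and the sources used here do not give the number of discs in 1 RNA sample.

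In flies the sex of a somatic cell is set by the splicing cascade of Sxl and tra, which ends in female or male forms of the transcription factor Doublesex. The disc holds a female genital, a male genital and an anal primordium, and in each sex one of the genital primordia grows while the other is held back. A difference in a dissected disc can therefore reflect another mix of cells as well as another level per cell, and fewer cells of a type and less RNA per cell cannot be told apart in these samples. Many genes that carry only a CG number have been seen in few tissues, and a large class of them is transcribed in the male germ line. That class can be recognised in part by name: synonyms that start with AT or bs followed by digits are names of cDNA clones from testis libraries.

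The labels of sex held in all 24 arrays by genes outside the list. The Runx gene lz, needed for the spermathecae, was at 9.18 to 10.94 log2 units in the female arrays and at 3.43 to 5.72 in the male arrays, and Poxn, a paired-domain gene needed in male genitalia, at 3.26 to 5.42 in females and 6.83 to 9.24 in males. The mean of 16 measured genital disc markers, of 19 listed, lay between 8.16 and 8.96 in every array, while Abd-B, abd-A and wg had no probe set of their own. Replicates correlated at r of 0.964 to 0.994 over genes. The 105 genes scattered more than the rest, most of all in males. Their median SD was 0.369 in females and 0.782 in males at L3, 0.250 and 0.666 at P6, and 0.232 and 0.464 at P20, where all genes had 0.145 to 0.250 in the 6 groups. The number of arrays limits the precision.

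One library stood apart for these genes. In L3 male replicate 2 the mean of 41 measured testis and male germline markers, of 51 listed, was 5.34, while the other L3 male arrays had 4.04 to 4.36 and the L3 female arrays 4.05 to 4.42. At the later stages the same mean was 4.01 to 4.29 in P6 females and 4.63 to 5.80 in P6 males, and 4.01 to 4.10 in P20 females and 4.60 to 5.26 in P20 males, with replicate 3 the highest male array at both. Among the markers, all male arrays lay above all female arrays for 0 of 41 at L3 (1.47% of all genes), for 19 at P6 (7.04%) and for 14 at P20 (4.81%). All female arrays lay above all male arrays for 2 at L3 (1.69% of all genes), 1 at P6 (3.91%) and 0 at P20 (3.0%). The median female minus male difference of the 41 was -0.22, -0.42 and -0.25. At P6 it was -4.22 for Mst77F but -0.02 for comr and 0.27 for achi, so the marker mean rests on part of the list. The same L3 male array was lowest in the mean of 7 measured fat body markers, of 11 listed, with 6.64 against 7.70 to 8.70 in the other L3 males and 7.73 to 8.74 in L3 females. It was also lowest in the mean of 8 measured myoblast and muscle markers, of 14 listed, with 5.95 against 7.04 to 7.20 in the other L3 males and 6.50 to 7.54 in L3 females. The part of testis, fat body or muscle RNA in the results below was not tested, and L3 differences of the genes described are given with this array and without it.

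The differences at the stages were unequal in size. The median female minus male difference of the 28 female-higher genes was 0.67 at L3, 0.81 at P6 and 0.78 at P20, and that of the 77 male-higher genes was -0.57, -1.73 and -1.10. Without L3 male replicate 2 the L3 medians were 0.45 for the 28 genes and -0.25 for the 77. Over all 11982 genes the medians were 0.014, -0.009 and -0.001. L3 was the weakest stage in 16 of the 28 and in 58 of the 77. P6 was the strongest in 9 and in 57, and P20 in 14 and in 15. All female arrays lay above all male arrays for 4 of the 28 genes at L3 (1.69% of all genes), 15 at P6 (3.91%) and 14 at P20 (3.0%). All male arrays lay above all female arrays for 14 of the 77 at L3 (1.47% of all genes), 65 at P6 (7.04%) and 58 at P20 (4.81%). These shares come from the contrasts that chose the genes and nothing is read from them. No overlap at any stage was seen in 3 female-higher and 11 male-higher genes, and a difference of at least 1 log2 unit at every stage in 2 and 4. These joint counts come from the same contrasts and are given without a share of all genes, so nothing is read from them either. The same limits applied to the 6773 genes with other names gave 37 higher in females and 90 higher in males. With each array centred on its median, which moved every female minus male difference up by 0.04 at L3, 0.09 at P6 and 0.06 at P20, the rule gave 42 female-higher and 61 male-higher genes, and the female-higher share was 40.8% against 26.7% without centring.

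**Figure D1:**
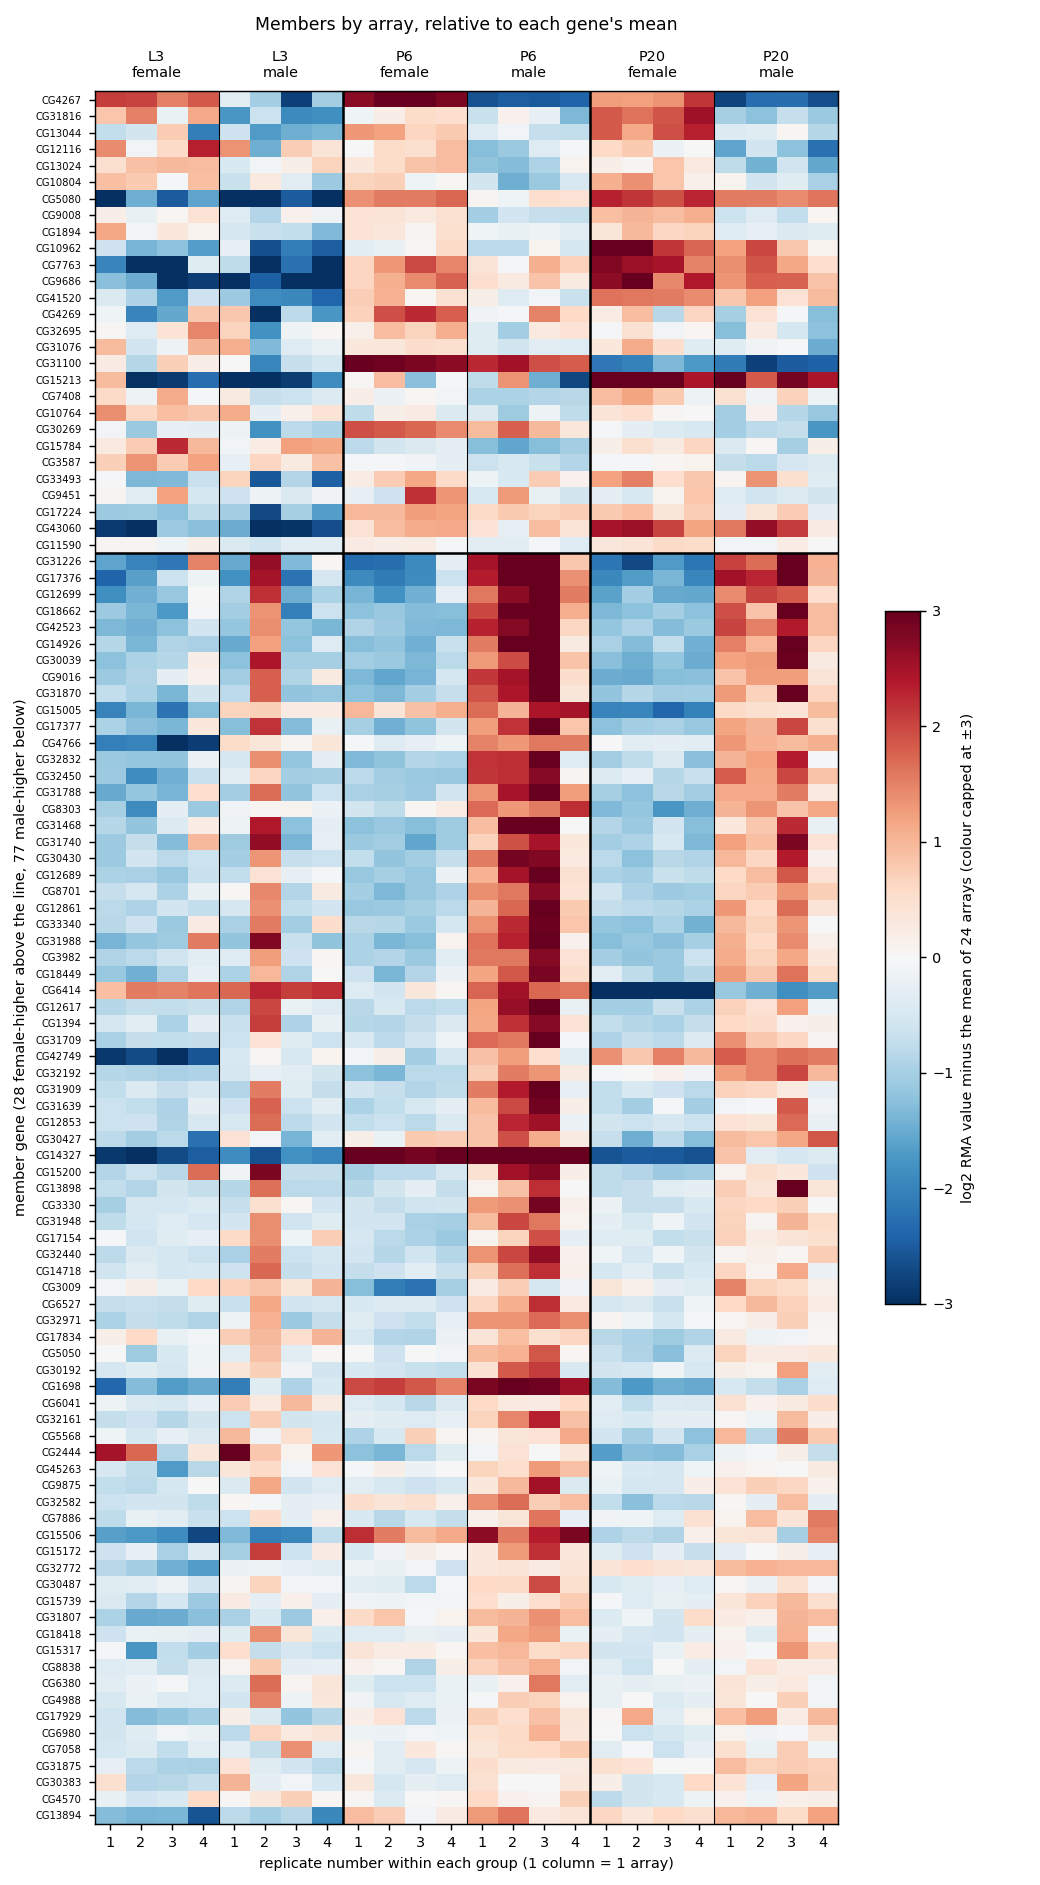
Heat map of the 105 genes (rows, the 28 female-higher genes above the line and the 77 male-higher genes below it) in the 24 arrays (columns, grouped by stage and sex), as the log2 RMA value minus the gene's mean over the 24 arrays, with the colour capped at ±3. Among male-higher genes, L3 male replicate 2 is red in rows where the other L3 male arrays are not, and P6 male replicate 3 is the deepest.

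CG4267, on chromosome arm 2L, had the largest female excess. It was at 9.12, 9.09, 8.57 and 8.90 log2 units in L3 females and 6.70, 6.02, 4.25 and 6.00 in L3 males. It was at 9.76, 10.02, 10.28 and 9.89 in P6 females and 4.43, 4.59, 4.54 and 4.66 in P6 males. In P20 females it was at 8.31, 8.29, 8.40 and 9.19, and in P20 males at 4.29, 4.77, 4.80 and 4.40. The sexes did not overlap at any stage, and the male arrays were high only at L3, where replicate 3 already had a value like those of later males. The female minus male difference was 3.18 at L3, 5.43 at P6 and 3.98 at P20, and it was 3.27 at L3 without male replicate 2. A further probe set of CG4267 gave 2.73, 3.52 and 2.46.

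CG31816, also on 2L, was the other gene with a wide female excess, and it narrowed at P6. Its L3 values were 6.12, 6.78, 5.08 and 6.41 in females and 3.53, 4.63, 3.36 and 3.45 in males. At P6 they were 5.15, 5.49, 5.84 and 5.78 in females and 4.61, 5.41, 5.03 and 3.94 in males. P20 females had 7.13, 6.90, 7.17 and 7.83, against 4.28, 4.06, 4.58 and 4.16 in P20 males. The sexes overlapped at P6 and were apart at L3 and P20, with differences of 2.36 (2.65 without L3 male replicate 2), 0.81 and 2.98 at L3, P6 and P20. CG31816 is the 1 female-higher gene with a testis clone name, and L3 male replicate 2 was the highest of its L3 male arrays.

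CG13044, CG13024, CG12116 and CG9008 each had a larger difference at P20 than at L3. CG13044, on 3L, differed by 0.65 at L3, 1.46 at P6 and 2.21 at P20, with L3 values of 7.51, 7.69, 9.01 and 6.16 in females and 7.61, 6.54, 6.77 and 6.88 in males, which overlapped, and P20 values of 10.09, 9.38, 10.16 and 10.58 in females and 7.83, 7.87, 8.30 and 7.37 in males, which did not. CG13024, on 3L, differed by 0.74, 1.50 and 1.44. The X-linked CG12116 differed by 0.81, 1.19 and 1.72, and CG9008, on 2L, by 0.43, 1.14 and 1.41. All 4 overlapped between the sexes at L3 and were apart at P6 and P20. Without L3 male replicate 2 the L3 differences of CG12116 and CG9008 were 0.23 and 0.24, below the limit of 0.4, and those of CG13044 and CG13024 were 0.51 and 0.69.

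The X-linked CG10804 changed less in size between the stages. It was at 6.92, 6.82, 5.98 and 6.92 in L3 females and 5.36, 6.33, 5.69 and 4.95 in L3 males, and the groups met in replicate 3 of the females and replicate 2 of the males. At P6 and P20 the sexes were apart, and the differences were 1.08 (1.33 without L3 male replicate 2), 1.23 and 1.31 at L3, P6 and P20. CG5080, on 2L, differed by 1.19 (1.09 without that array), 1.33 and 0.63 while its signal climbed in both sexes, as described under the stages below. CG1894, on 3R, listed with the synonym HAT, differed by 1.18 (1.22 without that array), 0.53 and 1.02 with no overlap at any stage. Its values were 10.60, 9.37, 9.76 and 9.54 in L3 females and 8.93, 8.77, 8.71 and 8.13 in L3 males. The dimmer probe set assigned to CG1894 ran the other way, with -0.16, -0.10 and -0.12, and the mean of both probe sets averaged 0.39 over the stages against 0.91 for the brighter one.

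The remaining female-higher genes had smaller differences, and CG11590, X-linked, was the steadiest. It was at 12.28, 12.27, 12.07 and 12.38 in L3 females and 11.76, 11.59, 11.87 and 11.89 in L3 males, and it differed by 0.48 (0.41 without L3 male replicate 2), 0.44 and 0.46 at L3, P6 and P20 with no overlap at any stage. Without L3 male replicate 2, 15 of the 28 genes stayed within the limits, with a median L3 difference of 0.86, and 13 did not, with 0.51 with the array and 0.20 without it. In 11 of those 13 this array was the lowest L3 male array. The split uses this array, so the count describes the split and tests nothing. The array was also the lowest L3 male array in the means of the fat body, muscle, hemocyte and salivary gland markers. CG17224, on 2L, was one of the 13 genes, with 7.25, 7.29, 7.11 and 7.57 in L3 females and 7.32, 5.65, 7.35 and 6.70 in L3 males. Its L3 groups overlapped, replicate 2 lay below all other arrays, and the difference was 0.55 with the array and 0.18 without it. CG4269 turned sign at L3 without the array, to -0.13.

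The male-higher genes fell into a set of 31 that stayed within the limits without L3 male replicate 2 and a set of 46 that did not. In the 31 the median difference was -0.70 at L3 (-0.65 without the array), -0.90 at P6 and -0.93 at P20. In the 46 it was -0.56 at L3, -2.30 at P6 and -1.31 at P20, and the L3 median without the array was -0.05, with single values from -0.34 to 0.51 and the sign turned in 19. The array was the highest L3 male array in 10 of the 31 and in 46 of the 46. Since the split uses the L3 values with and without this array, the L3 figures describe it and test nothing. Reapplied to all genes without the array, the rule gave 16 female-higher and 36 male-higher genes, of which 15 and 31 are among the 105.

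**Figure D2:**
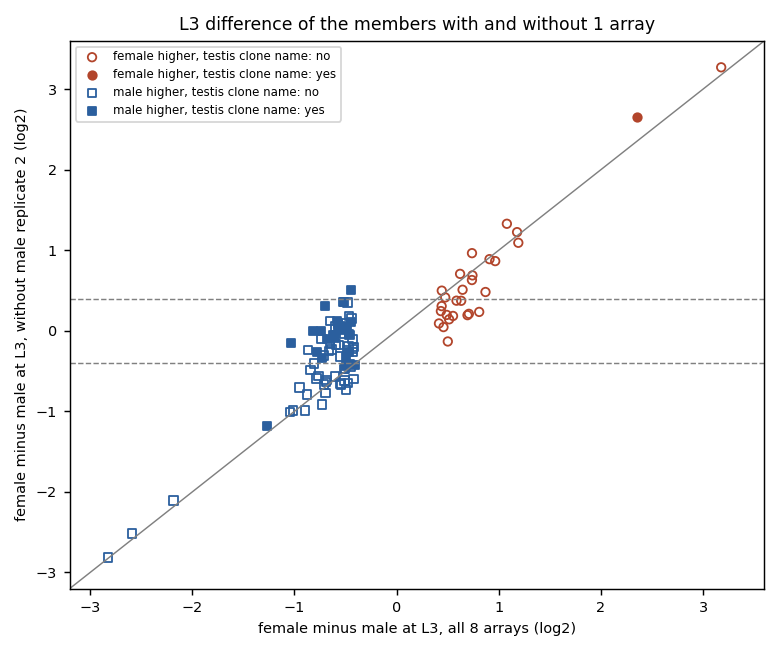
Female minus male difference at L3 in log2 units for the 105 genes, from all 8 arrays (horizontal axis) and without male replicate 2 (vertical axis); circles are female-higher and squares male-higher genes, filled where a synonym is a testis clone name, and dashed lines mark ±0.4. The 46 male-higher genes above the lower dashed line lie between -0.34 and 0.51 without the array, and CG4766, CG42749 and CG15005 stay at -2.82, -2.52 and -2.11.

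Among the 31, the X-linked CG4766 had the largest male excess at L3. It was at 6.91, 6.96, 5.91 and 6.12 in L3 females and 9.51, 9.32, 9.04 and 9.33 in L3 males. At P6 it was at 8.92, 8.57, 8.70 and 8.83 in females and 10.44, 10.25, 10.55 and 10.50 in males, and at P20 at 8.95, 8.64, 8.66 and 8.62 in females and 10.26, 9.99, 9.89 and 10.03 in males. All male arrays were above all female arrays at each stage, and the L3 females stood lowest of all. The differences were -2.82 (also -2.82 without L3 male replicate 2), -1.68 and -1.33 at L3, P6 and P20.

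CG42749, also X-linked, narrowed further. It was at 6.02, 6.22, 5.88 and 6.34 in L3 females and 8.46, 8.94, 8.42 and 9.02 in L3 males, a clear gap, and at 10.29, 9.71, 10.42 and 9.88 in P20 females and 10.74, 10.37, 10.57 and 10.44 in P20 males, where 1 female array lay above 1 male array. Its differences were -2.59 (-2.52 without L3 male replicate 2), -0.94 and -0.46. CG45263, on 3R, narrowed as well, with -1.27 (-1.18 without that array), -0.85 and -0.42 and no overlap at any stage. These 3 genes had the largest decrease in size of the difference between L3 and P20, by 1.50 for CG4766, 2.14 for CG42749 and 0.85 for CG45263. Further probe sets gave -1.03, -0.54 and -0.46 for CG42749, and 3 of CG45263 gave L3 values of -0.04, -0.98 and -0.41.

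CG15005, on 3L, had its narrowest sex difference at P6. It was at 4.59, 5.23, 4.38 and 5.32 in L3 females and 7.26, 7.31, 6.84 and 6.86 in L3 males. At P6 females had 7.59, 6.97, 7.49 and 7.69 and males 8.27, 7.62, 9.05 and 9.10, and at P20 females had 4.59, 4.63, 4.21 and 4.57 and males 7.18, 7.08, 7.01 and 7.54. Females reached the level of L3 males only at P6, and there 1 male array lay within the female range. The differences were -2.19 (-2.11 without L3 male replicate 2), -1.08 and -2.70. CG8303, on 2R, differed by -1.05 (-1.01 without that array), -1.95 and -2.51, and CG6414, X-linked, by -0.69 (-0.61 without it), -2.05 and -2.15, both with no overlap at any stage. The X-linked CG6041, with the synonym SP86, differed by -0.90 (-0.99 without it), -0.98 and -0.83, again with no overlap, at 7.48, 7.20, 7.14 and 7.38 in L3 females and 8.38, 7.93, 8.59 and 7.90 in L3 males. CG8303 and CG6041 were chosen to be named after their values were seen, as were CG11590 and CG4269.

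**Figure D3:**
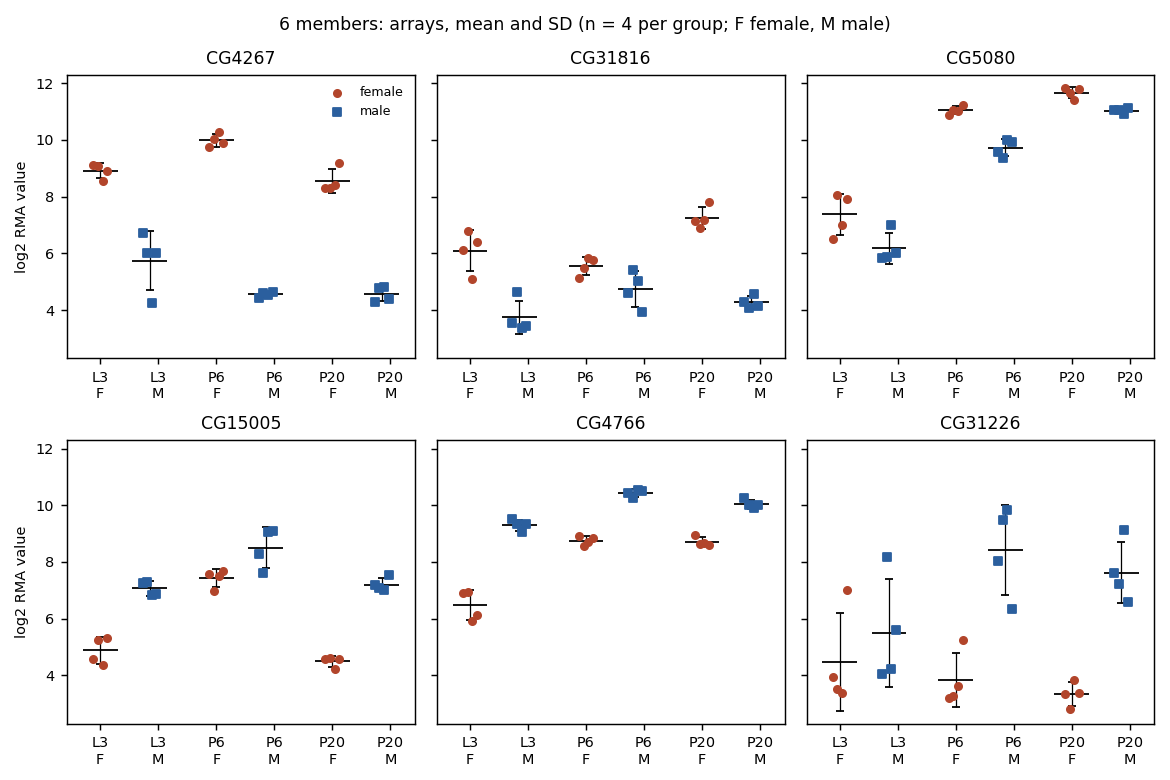
Log2 RMA values of 6 genes in each array (points, circles for female and squares for male), with the mean and SD of each group of 4 arrays, by stage and sex. CG4267, CG31816 and CG5080 are female-higher, CG15005, CG4766 and CG31226 male-higher; in CG31226 the L3 groups overlap, with 1 female array at 7.03 and 1 male array at 8.17.

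The other 9 of the 10 largest male excesses belong to the set of 46, and they share 1 profile. CG31226, on 3R, was at 3.95, 3.52, 3.39 and 7.03 in L3 females and 4.03, 8.17, 4.23 and 5.60 in L3 males. It was at 3.22, 3.28, 3.63 and 5.26 in P6 females and 8.03, 9.46, 9.84 and 6.36 in P6 males, and at 3.36, 2.82, 3.84 and 3.36 in P20 females and 7.59, 7.22, 9.11 and 6.59 in P20 males. At L3 the groups overlapped, with replicate 4 of the females above 3 of the males, and at the later stages they were apart. The differences were -1.03 at L3, -4.58 at P6 and -4.28 at P20, and -0.15 at L3 without male replicate 2.

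CG17376, on 2L, repeated this. Its L3 values were 3.63, 4.41, 5.40 and 5.90 in females and 4.23, 8.55, 3.82 and 5.55 in males, its P6 values 4.14, 3.94, 4.16 and 5.40 in females and 8.39, 9.49, 10.24 and 7.42 in males, and its P20 values 4.10, 4.36, 4.67 and 4.09 in females and 8.55, 8.33, 9.16 and 7.07 in males. Only replicate 2 stood out among L3 males, and all later males were above all females. The differences were -0.70, -4.48 and -3.98, and the L3 value without the array was 0.30. Both further probe sets of CG17376 met the same limits, with -1.12, -3.80 and -3.34 and with -0.75, -2.12 and -1.72.

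CG12699, CG18662, CG42523, CG14926, CG30039, CG9016 and CG31870 followed the same course. Their differences ran from -0.82 to -0.47 at L3, from -3.81 to -2.98 at P6 and from -2.91 to -2.32 at P20, and the sexes were apart in all 7 at P6 and P20. At L3 the highest male array was replicate 2 in each. CG30039, for example, was at 3.10, 3.39, 3.48 and 4.55 in L3 females and 3.11, 6.76, 3.34 and 3.35 in L3 males, so that 1 array carried the whole difference. Without it the L3 differences of the 7 genes lay between 0.00 and 0.36. The size of the difference grew most between L3 and P20 in CG17376 (by 3.28), CG31226 (by 3.25) and CG18662 (by 2.44).

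The values of the 46 genes by array can be set beside the testis markers. Their median value was 6.12 in L3 male replicate 2, while it was 3.79 to 4.17 in the other L3 males and 3.69 to 4.25 in L3 females. The split used this array, so that gap at L3 follows from the split and tests nothing. P6 male replicate 3, the highest male array for the markers, was the highest P6 male array in 43 of the 46 and in 8 of the 31, and P20 male replicate 3 the highest P20 male array in 32 and 12. L3 female replicate 4, the highest L3 female array for the markers, was the highest L3 female array in 38 of the 77 male-higher genes. The shares of all genes for these counts are not given here, and the same arrays chose the genes. Nothing is read from the counts. Without that female array the rule gave 97 male-higher genes in place of 77. The part of testis RNA in these differences was not tested.

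**Figure D4:**
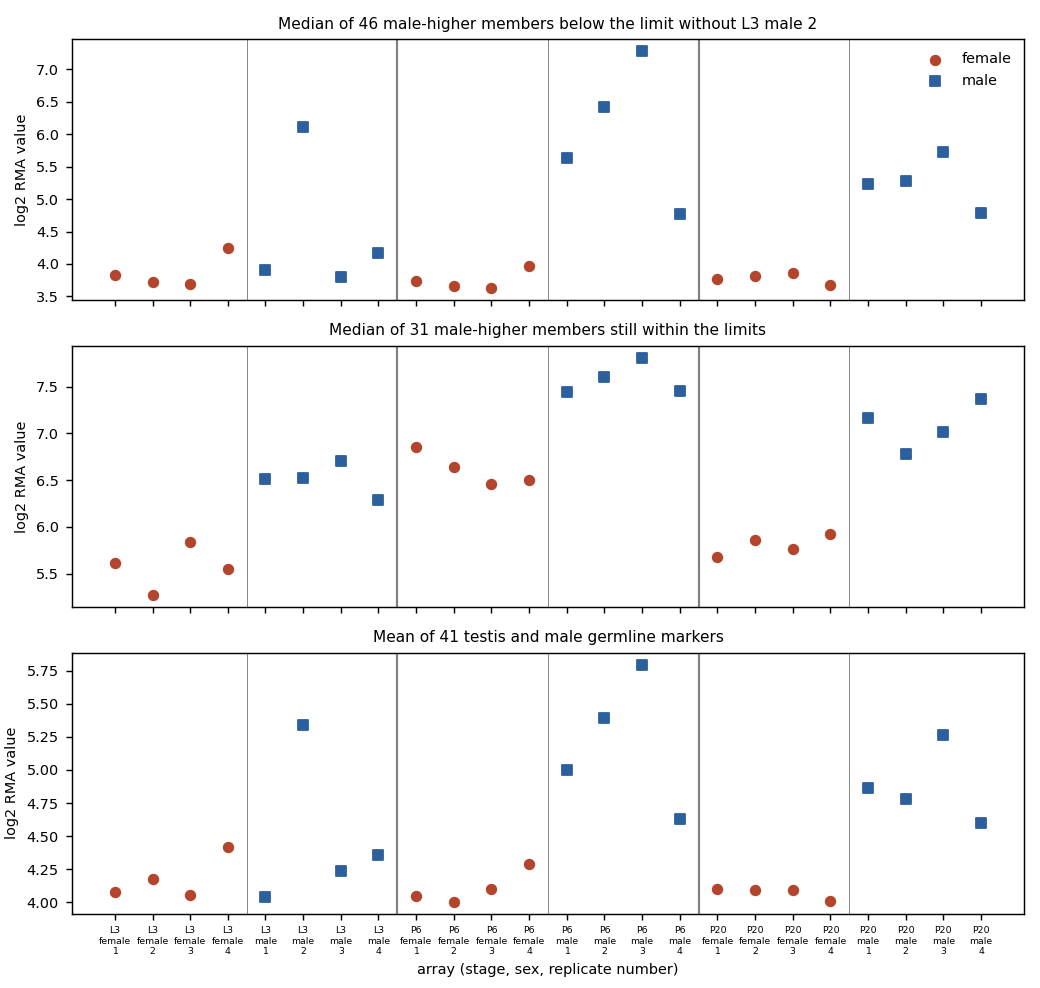
Log2 RMA values by array (horizontal axis: stage, sex and replicate number; circles female, squares male): the median of the 46 male-higher genes outside the limits without L3 male replicate 2 (top), the median of the other 31 (middle) and the mean of 41 testis and male germline markers (bottom). L3 male replicate 2 is at 6.12 in the top panel and 5.34 in the bottom one, above the other L3 arrays, and does not stand out in the middle panel. The split into 46 and 31 used this array, so its place in the top and middle panels follows from the split.

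Names and positions, which the rule did not use, differed between the sets. A testis clone name was listed for 22 of the 46 genes (47.8%), for 3 of the 31 (9.68%), for 1 of the 28 female-higher genes (3.57%) and for 237 of the 5209 CG-numbered genes (4.55%). Of the 237 genes, 211 are not among the 105, and of these all male arrays lay above all female arrays in 0 at L3, where 1.47% of all genes did, in 64 (30.3%) at P6, where 7.04% did, and in 28 (13.3%) at P20, where 4.81% did. These are genes that the rule left out, so the counts carry its choice too. Of the 105 genes, 104 matched the RefSeq gene table of fly Release 6, all of them protein-coding, and CG32582 was not matched. X-linked genes were 11 of 30 placed in the set of 31 (36.7%), 2 of 46 (4.35%) in the other male-higher set, 8 of 28 female-higher genes (28.6%) and 880 of 5137 CG-numbered genes placed (17.1%). Arm 2L held 25 of the 76 placed male-higher genes (32.9%), 5 of the 28 female-higher genes (17.9%) and 18.5% of the CG-numbered genes. These shares were not tested.

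The level in females, where the probe sets of the 46 genes had little signal, also set them apart. The female means were below 6.75, the median level of all genes, at all 3 stages in 46 of the 46, in 15 of the 31 and in 3 of the 28 female-higher genes. No background level is given with the arrays, so a low value is not shown to be above background, and a difference against it may understate the change.

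Some neighbouring genes on the chromosome met the same limits. Of the measured direct neighbours of female-higher genes, 1 of 34 (2.94%) met the same limits in the same direction, and of those of male-higher genes 4 of 93 (4.30%), where the shares over all genes were 0.542% and 1.39%. The 4 are the adjacent pairs CG1394 and CG15200 on the X and CG17376 and CG17377 on 2L, each counted from both sides, and all 4 belong to the set of 46. The 1 neighbour of a female-higher gene is Drip, whose annotated span overlaps that of CG7763. Nothing is read from these shares. CG17377 was at 3.87, 3.56, 3.45 and 5.13 in L3 females and 3.54, 6.98, 3.51 and 4.59 in L3 males, and differed by -0.65, -3.01 and -2.26 at L3, P6 and P20, with 0.12 at L3 without male replicate 2. Without that array the L3 differences of CG17376, CG1394 and CG15200 also turned to 0.30, 0.10 and 0.35. A dimmer probe set of CG17377 gave 0.17, 0.06 and 0.12, so the brighter one alone carried the bias. The annotated span of 43 of the 104 matched genes overlaps that of a neighbour, and the values do not show which of the overlapping genes a probe set read.

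Of the 105 genes, 10 had further probe sets, 16 in all. The sign averaged over stages was the same in 13 of the 16, and the limits were met by 5. The probe sets with the other sign belong to CG1894, CG17377 and CG30427. In CG30427, on 2R, the brightest probe set gave -0.88 (-0.79 without L3 male replicate 2), -0.67 and -2.25 at L3, P6 and P20, a second gave 0.18, 0.37 and 0.05, and another gave -0.39, 0.06 and -3.16.

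The comparison of successive stages asks how these genes changed as the disc began metamorphosis. It was tested on the mean of both sexes, with limma and Benjamini-Hochberg adjustment over 11982 genes (adjusted p under 0.05, two-sided). This mean uses the same arrays as the sex differences that chose the genes. The 105 genes scattered more in males than in females, so the mean is not independent of that choice. The counts below are therefore a description of these genes. Between L3 and P6, 52 of the 105 genes rose (49.5%), where 20.5% of all genes did, and 8 fell (7.62%), where 28.1% did. Of the female-higher genes 13 rose, 4 fell and 11 did not pass, and of the male-higher genes 39, 4 and 34. Between P6 and P20, 16 genes rose (15.2%, with 21.0% of all genes) and 14 fell (13.3%, with 17.9%), with 11 and 3 among the female-higher genes and 5 and 11 among the male-higher genes. Markers of other cells moved between L3 and P6 in both sexes. The mean of 13 hemocyte markers was 5.80 to 6.36 in P6 females and 6.54 to 6.78 in P6 males, against 7.49 to 8.56 in L3 females and 7.74 to 8.79 in L3 males. That of 9 measured tracheal markers, of 12 listed, was 9.26 to 9.50 in P6 females and 9.07 to 9.26 in P6 males, against 8.64 to 8.86 in L3 females and 8.75 to 8.89 in L3 males. Their part in the stage changes was not tested. The median change over all genes was -0.055 and 0.025 log2 units. Centring the arrays moved every change by -0.11 and 0.11, and all genes then gave 1907 higher and 4116 lower in place of 2454 and 3365 at the first step, and 3192 and 1534 in place of 2513 and 2146 at the second. The 105 genes gave 44 and 11 at the first step and 16 and 11 at the second.

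In the male-higher genes the mean over sexes hides a split. The median change between L3 and P6 was -0.12 in females and 1.58 in males over the set of 46, and 0.62 in females and 1.11 in males over the set of 31. Of the 46 genes 18 rose and 0 fell, and of the 31 genes 21 rose and 4 fell. The split used L3 values, so these counts are a description, and the testis markers were higher in P6 males than in 3 of the 4 L3 males. With each replicate number within a stage as a random block, 24 of the 77 male-higher genes rose between L3 and P6 in place of 39, 5 of the 46 in place of 18 and 19 of the 31 in place of 21. Without L3 male replicate 2, 36 of the 46 rose, and 21 of the 31. Without P6 male replicate 4, the lowest P6 male array for the testis markers, 27 of the 105 genes fell between P6 and P20 in place of 14.

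CG14327, on 3R, had the smallest adjusted p of both steps. It was at 5.61, 5.42, 5.83 and 6.03 in L3 females and 6.66, 5.89, 6.71 and 6.55 in L3 males. At P6 it was at 12.18, 12.46, 11.39 and 11.94 in females and 12.74, 13.02, 12.57 and 11.86 in males, and at P20 at 5.92, 6.01, 5.99 and 5.90 in females and 9.36, 8.18, 8.02 and 8.11 in males. P6 arrays of both sexes stood above every other array, and at P20 males stayed above females. The rise to P6 was 6.18 ± 0.20 log2 units (SE, limma adjusted p = 5.28e-17) and the P20 minus P6 change was -5.08 ± 0.20 (limma adjusted p = 2.24e-15), with -6.03 in females and -4.13 in males.

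Peaks at P6 were seen in further genes. The female-higher CG31100, on 3R, had 6.82, 5.71, 7.28 and 6.75 in L3 females and 6.56, 4.60, 5.88 and 6.03 in L3 males, 9.53, 9.49, 9.38 and 9.25 in P6 females and 8.83, 9.09, 8.51 and 8.39 in P6 males, and 4.41, 4.54, 5.23 and 4.84 in P20 females and 4.46, 3.75, 4.06 and 4.15 in P20 males. P6 was above both other stages in each sex, without overlap. CG31100 rose by 2.86 ± 0.23 (SE, limma adjusted p = 9.67e-10) and then changed by -4.63 ± 0.23 (limma adjusted p = 1.81e-13). CG1698, on 2R, with the synonym DmNAT5, rose by 3.74 ± 0.21 (limma adjusted p = 1.12e-12) and then changed by -3.48 ± 0.21 (limma adjusted p = 4.61e-12), while its female minus male difference was -0.76 at L3 (-0.56 without male replicate 2), -1.09 at P6 and -0.86 at P20. In all, 11 of the 105 genes rose and then fell, among them CG15005, CG15506, CG8303 and CG30269.

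CG5080 rose at both steps. Its L3 values were 6.52, 8.04, 7.01 and 7.93 in females and 5.82, 5.89, 7.0 and 6.03 in males. At P6 it averaged 11.06 ± 0.15 in females and 9.73 ± 0.29 in males (SD, n = 4 each). P20 females had 11.82, 11.64, 11.41 and 11.79 and P20 males 11.06, 11.04, 10.92 and 11.12. No array of a later stage fell below one of an earlier stage within a sex. The changes were 3.61 ± 0.19 (SE, limma adjusted p = 5.68e-13) and 0.96 ± 0.19 (limma adjusted p = 0.00034). Of the 105 genes 10 rose at both steps, 6 of them female-higher.

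The rises between P6 and P20 with the smallest adjusted p were in CG10962, CG15213, CG42749 and CG32772. The X-linked, female-higher CG10962 rose by 2.01 ± 0.32 (SE, limma adjusted p = 2.18e-05), to 9.76, 9.68, 8.79 and 8.37 in P20 females and 7.83, 8.63, 7.44 and 6.75 in P20 males, against 6.31, 6.42, 6.67 and 7.22 in P6 females and 5.84, 5.84, 6.74 and 6.11 in P6 males. Both sexes rose without overlap between the stages. CG15213, on 3L and female-higher, rose by 3.26 ± 0.53 (limma adjusted p = 3.03e-05), and among its L3 females 1 array stood at 9.29 where the others had 5.39, 5.47 and 6.06, close to the 5.09 to 6.47 of L3 males. The X-linked male-higher genes CG42749 and CG32772 rose by 1.29 ± 0.19 (limma adjusted p = 1.07e-05) and by 0.67 ± 0.10 (limma adjusted p = 9.41e-06). CG4766 had risen by 1.71 ± 0.13 between L3 and P6 (limma adjusted p = 2.86e-10), by 2.28 in females and 1.13 in males.

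The 4 genes named for a fall between L3 and P6 were all X-linked. CG3587 fell by 1.09 on the log2 scale (SE 0.13, limma adjusted p = 3.69e-07) and CG15784 by 1.75 (SE 0.24, limma adjusted p = 2.37e-06), both female-higher. The male-higher CG3009 fell by 1.21 (SE 0.21, limma adjusted p = 7.48e-05), by 1.77 in females and 0.64 in males. CG6414 fell at both steps, by 0.85 (SE 0.16, limma adjusted p = 0.000108) and by 3.48 (SE 0.16, limma adjusted p = 2.99e-14). It was at 4.90, 4.63, 4.83 and 5.03 in P20 females and 7.38, 7.08, 6.68 and 6.84 in P20 males, against 8.13, 7.95, 8.87 and 8.56 in P6 females and 10.28, 11.05, 10.25 and 10.11 in P6 males. In the first step its females accounted for nearly all of the fall, with -1.53 in females and -0.17 in males.

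**Figure D5:**
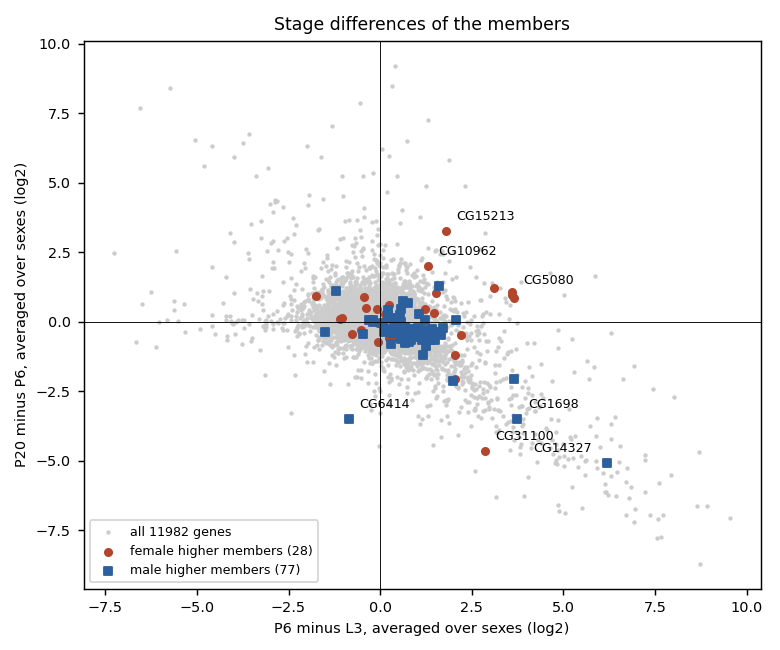
Change between L3 and P6 (horizontal axis) and between P6 and P20 (vertical axis), each averaged over the sexes in log2 units, for all 11982 genes (grey), the 28 female-higher genes (circles) and the 77 male-higher genes (squares). Both axes use the P6 arrays, so a gene off in those arrays moves on both; CG14327 lies at 6.18 and -5.08, CG31100 at 2.86 and -4.63, and CG15213 at 1.78 and 3.26.

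In group means, some of the genes with the largest sex differences moved in opposite directions in the sexes between stages, which a mean over the sexes does not show. In the steps given here for CG4267 and CG31816, the female arrays of the stages did not overlap but the male arrays did. CG4267 did not pass between L3 and P6 (-0.06 ± 0.23, SE, limma adjusted p = 0.846), where its females had 1.07 and its males -1.19, and it fell between P6 and P20 by 0.71 (SE 0.23, limma adjusted p = 0.0178). CG31816 rose between P6 and P20 by 0.61 ± 0.24 (limma adjusted p = 0.0494), with 1.69 in females and -0.48 in males. Neither of these P20 calls held with the random block of replicate number within stage. CG31226, with the largest male excess, passed at neither step, while CG15005 rose by 2.0 ± 0.19 (SE, limma adjusted p = 1.31e-08) and then changed by -2.12 ± 0.19 (limma adjusted p = 5.62e-09).

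Genes at the edge of the rule show how narrow it was. Just inside were CG17224, with a weakest difference of 0.41 at P6, and CG10764, with 0.41 at P6, among female-higher genes, and CG15172, with -0.40 at P20, and CG31875, with the synonym Desr and -0.41 at L3, among male-higher genes. Just outside lay CG6836 (0.395 at P6) and CG13962 (0.384 at P6), higher in females, and CG11373 (-0.3995 at P20) and CG4477 (-0.3984 at P20), higher in males. CG15172 was at 3.59, 3.96, 3.24 and 3.80 in L3 females and 3.22, 6.27, 3.57 and 4.45 in L3 males, and its L3 difference of -0.73 was -0.10 without male replicate 2.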

How the data were processed

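RNA levels were measured on 24 Affymetrix arrays, 4 biological replicates in each of 6 groups of sex and stage. The values are log2 summaries per probe set, deposited by the authors and made with RMA (robust multi-array average) per the submitters' processing notes; its version and settings are not stated there, and no detection calls were used. Of 18952 probe sets, 183 controls, 402 with several genes and 4720 with none were left out, and the 13647 with 1 gene gave 11982 genes, each by its brightest probe set. No filter on low values was applied. Gene symbols, synonyms and chromosomes came from a RefSeq table of Release 6, and no coordinates are printed, as the build behind the array annotation is unknown.

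The members, lists and tests were chosen with earlier results of these data known. Stage changes, averaged over the sexes and given as later minus earlier, were tested with limma 3.58.1 in R 4.3.3 (lmFit and eBayes, 1 mean per group, 18 residual degrees of freedom). P-values were adjusted by Benjamini-Hochberg over all genes, and the threshold was 0.05. On simulated data, with 200 of 11982 genes changed between L3 and P6, changes of 0.5, 1 and 2 log2 units were recovered for 56.7%, 95.5% and 98.5% of genes, with 8 false calls. The simulated noise was normal, independent between arrays and equal in all groups of a gene, with no sex difference. These figures may not hold for the members, whose spread differed between females and males.

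Named genes are the 8 female-higher and 10 male-higher members with the largest difference averaged over stages, the 4 with the smallest adjusted p per stage comparison and direction, the 2 per direction nearest the limits on each side, those with a probe set of opposite sign, and the 3 whose difference grew or shrank most. Other names were added after their values were seen. The markers are lists of genes known for each tissue.

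To see whether replicate numbers pair arrays, each array's departures from its group mean were correlated across genes. Same-numbered female and male arrays had r of 0.11, 0.42, 0.24 and 0.40 at P20, but 1 pair at L3 (0.07) and 2 at P6 (0.09 and 0.03) stayed under 0.1, and the stages were not paired (r from -0.20 to 0.20). The labels do not say what a number marks. Alternatives were centring of arrays, averaging all probe sets of a gene, a limit of 0.5, dropping the 25% dimmest genes, a variance trend, only the 2 stages compared, 2 replicate blocks, and leaving out each array. Leaving out 3 male arrays with the highest testis markers was added after seeing the data.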

Additional observations from a re-analysis of the deposited data

Results flagged for a closer look

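The 18 genes with the largest differences, in 6 groups each, gave 108 groups of 4 arrays. Of these groups, 11 held an array whose gap to the others was over 0.829 of the group's range. This is the 95% limit of Dixon's test, which chance passes in about 1 of 20 groups of unselected values. The 18 genes were chosen by differences in these same arrays, so that rate does not apply to them and the flags are a description. In 5 of the 11 groups the array was L3 male replicate 2, and it was the highest. There CG31816 was at 4.63 (other arrays 3.36 to 3.53), CG12699 at 8.10 (4.44 to 5.01), CG42523 at 6.13 (3.37 to 3.57), CG30039 at 6.76 (3.11 to 3.35) and CG31870 at 6.73 (3.76 to 4.15). The testis markers were highest among L3 arrays in that array as well, and their part in these values was not tested.

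Replicate 4 of the females was set apart in CG31226 at L3, with 7.03 (other arrays 3.39 to 3.95), and in CG17376 at P6, with 5.40 (3.94 to 4.16). It was also set apart in CG4267 at P20, with 9.19 (8.29 to 8.40). Replicate 2 of P20 females was high in CG12699, with 4.90 (4.31 to 4.40). Replicate 3 was low in CG10804 in L3 females, with 5.98 (6.82 to 6.92), and in CG15005 in P20 females, with 4.21 (4.57 to 4.63).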

How the results depend on the processing

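The number of genes that meet the rule depended on its limit and on L3 male replicate 2. At a limit of 0.5 it gave 17 female-higher and 46 male-higher genes in place of 28 and 77. Leaving out 1 array at a time gave 16 to 38 and 36 to 97, with 16 and 36 without L3 male replicate 2, the only array whose loss moved either count by over 1.5 times. Leaving out 3 male arrays with the highest testis markers, an alternative chosen after seeing the data, gave 16 and 33, of which 15 and 29 are among the 105. Centring gave 42 and 61. The counts of stage calls among the 105 genes stayed within 1.5 times under the alternatives run, except for falls between P6 and P20, where 14 became 25 in a fit of only those 2 stages and ranged from 12 to 27 with 1 array left out, with 27 without P6 male replicate 4. With the replicate number as a block, 51 genes rose and 9 fell between L3 and P6, and 15 and 15 between P6 and P20; a random block of number within stage gave 37 and 7, and 14 and 11. In the probe set means of CG4267, CG1894, CG17377 and CG45263, the sex difference averaged over stages was 3.55, 0.39, -0.93 and -0.51 in place of 4.20, 0.91, -1.97 and -0.84. None of the differences averaged over stages or sexes of the named genes reversed its direction, but at L3 alone the sex difference turned sign without male replicate 2 in 19 of the 77 male-higher genes and 1 of the 28 female-higher genes. Signal over background is unknown, so differences of dim genes have no measured floor.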
